A study of Mus musculus with 12 samples.

Results

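Among 12 arrays of sorted mouse glioma cells, the 6 from pEGFR-Hi tumors divided by the number in their titles: mice 1, 3 and 5 (odd) stood apart from mice 2, 4 and 6 (even) in 221 of 19938 genes. The division was chosen by these expression values, with the log2 values of the 6 mice as the measure, and the titles attach no meaning to the numbers, so differences between odd and even pEGFR-Hi mice are described here without a test. A gene was counted as separating the mice when its 3 odd and 3 even log2 values did not overlap and the means differed at least 1.5-fold. By this rule 164 genes were higher in the odd mice (0.823% of all genes) and 57 were higher in the even mice (0.286%). The genes higher in the odd mice included interferon-stimulated genes, hypoxia-induced glycolytic and angiogenic genes and enzymes of cholesterol synthesis. Also higher was A2m, listed here with acute phase and STAT3 target genes. Genes of the integrated stress response, heat shock chaperones and targets of ERK signaling leaned toward the even mice.

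Both tumor lines came from neural progenitors that lacked Ink4a/Arf and had been transduced with human EGFRvIII, an EGFR variant that signals without ligand, and both had been passaged through a mouse brain as a tumor. The pEGFR-Hi line had high and the pEGFR-Lo line low EGFRvIII activity. Each group was 1 tumor line, injected as 2 µl of 200000 cells per µl into the brains of syngeneic FVB mice (age not given in the labels), with 6 mice per line and brains taken near the median survival of that line. ZsGreen-tagged tumor cells were sorted after a Percoll gradient that removed myelin and with DAPI to leave out dead cells, and RNA was hybridized to Affymetrix Mouse Gene 1.0 ST arrays, with 1 array per mouse. No label gave a date of surgery, sorting or scanning, so a handling batch that follows the odd and even numbers cannot be told apart from any other difference between these mice.

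Type I interferon acts through a cell surface receptor and turns on antiviral genes such as Oas2 and Mx2, many of which carry an interferon-stimulated response element in their promoters. Low oxygen stabilizes HIF1A, which binds the hypoxia response element and turns on glucose transport, glycolysis and Vegfa, a program well known from glioblastoma. Low membrane sterol activates SREBP2, which turns on nearly all enzymes of cholesterol synthesis. STAT3, downstream of interleukin 6 family cytokines and of EGFR, induces acute phase genes, and A2m was listed here with acute phase and STAT3 target genes.

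The deposited values are on a log2 scale after RMA, which equalizes the distribution of probe intensities across arrays before it summarizes each probe set, and the array medians of the deposited values lay between 4.81 and 4.88. Background was set at 4.10, the level below which 95% of 1027 olfactory receptor genes had their mean. Across all genes the 6 pEGFR-Hi arrays were alike: correlations ran from 0.9916 to 0.9936 over the 6 pairs of arrays that were both odd or both even and from 0.9907 to 0.9926 over the 9 pairs of an odd with an even array. The median odd minus even difference over all genes was -0.00. Among pEGFR-Lo mice, replicates 3 and 6 had low means of interferon-stimulated genes, 5.51 and 5.34 against 6.59 to 6.93 in the other mice.

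The 6 pEGFR-Hi mice can be divided 3 and 3 in 10 ways, and the odd against even division is the one with the most separating genes. It had 221 such genes, against 42 to 74 (median 54) for the other 9 divisions. At a limit of 2-fold it had 49 genes, 42 higher in the odd and 7 higher in the even mice, against 1 to 7 for the others. With no fold limit the gap was narrower, with 2529 genes without overlap against 1609 to 2281. Those 2529 genes fell almost equally in each direction, with 1269 higher in the odd mice (6.36%) and 1260 higher in the even mice (6.32%), so the excess of genes higher in the odd mice appeared only once a 1.5-fold limit was set. In pEGFR-Lo, whose mice had no part in choosing the division, the same count gave 35 genes for odd against even, 13 higher in the odd (0.0652%) and 22 higher in the even mice (0.11%), and 24 to 327 for the other divisions.

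**Figure D1:**
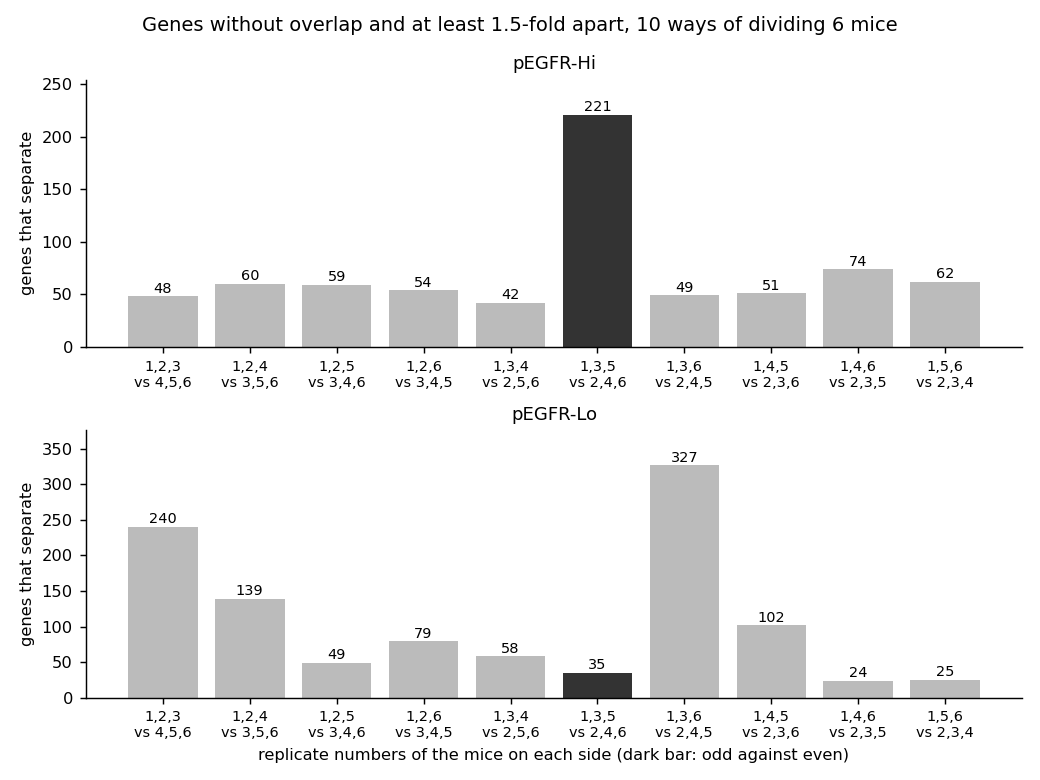
Number of genes without overlap and at least 1.5-fold apart (vertical axis, from 0) for each of 10 ways of dividing 6 mice 3 and 3 (horizontal axis, replicate numbers on each side), for pEGFR-Hi above and pEGFR-Lo below. Odd against even (dark bars) had 221 genes in pEGFR-Hi, the most of its 10 divisions, and 35 in pEGFR-Lo, where 7 divisions had more.

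The limit of 1.5-fold cut through a continuous range. The last genes inside it were Dnaaf3, 1.502-fold higher in the odd mice with a log2 difference of 0.59, and Fjx1, 1.501-fold higher in the even mice with a difference of -0.59. Just outside it, Pik3r3 and Nr4a3 did not overlap either and differed by 0.58. Of the 164 genes, 87 had their highest value in mouse 5, 39 in mouse 3 and 38 in mouse 1. The 57 genes were spread more evenly, with 17, 22 and 18 highest in mice 2, 4 and 6.

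A2m, which encodes the protease inhibitor alpha-2-macroglobulin, was among the genes named with the division. Its log2 values were 10.36, 10.27 and 10.21 in mice 1, 3 and 5, and 8.82, 8.96 and 8.94 in mice 2, 4 and 6. The odd mean was 10.28 ± 0.08 (SD, n = 3) and the even mean 8.90 ± 0.08 (SD, n = 3), a difference of 1.38 or 2.60-fold. All 6 pEGFR-Hi mice lay far above the pEGFR-Lo mice, which ranged from 4.59 to 5.23 (log2 difference between the lines 4.67, SE 0.27, adjusted p = 1.55e-09 from limma). Within pEGFR-Lo the odd minus even difference of A2m was -0.10.

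The acute phase and STAT3 target genes were divided: 17 of 34 measured had the higher mean in the odd mice and 17 the lower. Their median difference was -0.00, as over all genes, and 22 had a mean above background. In the odd mice 5 were higher (14.7%, against 0.823% of all genes) and in the even mice 0. Without a fold limit 9 did not overlap with the odd mice higher (26.5%, against 6.36%) and 1 with the even mice higher (2.94%, against 6.32%). Besides A2m the 5 were Cfb, complement factor B, Lbp, which carries lipopolysaccharide to its receptor, and the metal-binding metallothioneins Mt1 and Mt2. Cfb was 7.40, 8.55 and 9.11 in the odd mice and 6.86, 7.06 and 7.21 in the even mice, a 2.48-fold difference that came mostly from mice 3 and 5. Mt2 was 12.28, 11.94 and 12.41 in the odd mice and 11.53, 11.32 and 11.34 in the even mice. Lbp differed by 0.85, and by 0.49 without mouse 5. Stat3 itself (difference -0.13) and its feedback inhibitor Socs3 (-0.05) did not separate the mice.

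Oas2, which makes the second messenger that activates RNase L, had log2 values of 7.29, 7.93 and 7.96 in mice 1, 3 and 5 and of 6.13, 6.39 and 6.31 in mice 2, 4 and 6. The odd mean of 7.72 ± 0.38 (SD, n = 3) was 2.73-fold above the even mean of 6.28 ± 0.13 (SD, n = 3). The groups did not overlap, and both were above all pEGFR-Lo mice (4.24 to 5.002; log2 difference between the lines 2.43, SE 0.29, adjusted p = 6.11e-06 from limma).

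Oas2 was 1 of 16 interferon-stimulated genes, of 46 measured, that were higher in the odd mice (34.8%, against 0.823% of all genes). In the even mice 0 were higher. The list median difference was 0.51, and 44 of the 46 genes had the higher mean in the odd mice. The 16 covered sensors of viral RNA (Ifih1, Dhx58, Ddx60), effectors that block viral replication (Mx1, Mx2, Oas1b, Oas2, Oas3, Ifit1, Ifit3, Ifit3b, Rsad2, Isg20, Cmpk2), the transcription factor Irf7 and the feedback inhibitor Usp18. Mx2, a dynamin-like antiviral GTPase, had the largest difference of means in this list, with values of 8.38, 8.35 and 8.77 in the odd mice and 7.45, 6.91 and 6.38 in the even mice (difference 1.59). Irf7, the amplifier of the type I interferon response, was 8.96, 9.31 and 9.81 in the odd mice and 8.57, 8.70 and 8.64 in the even mice (difference 0.73). Mouse 5 had the highest value for 15 of these 16 genes, and the list mean was 8.11, 8.30 and 8.65 in mice 1, 3 and 5 against 7.86, 7.80 and 7.68 in mice 2, 4 and 6. The lines also differed in this list, and limma called 34 of the 46 genes higher in pEGFR-Hi, against 795 of all 19938 genes (3.99%).

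Ifnb1, which encodes the type I interferon beta, separated the mice at the bottom of the range. Its values were 4.64, 4.14 and 4.64 in the odd mice and 2.9995, 3.23 and 2.89 in the even mice, the latter all below background, which gives only a bound of at least 1.29-fold on the difference. In pEGFR-Lo it ran from 2.56 to 3.23, below background in every mouse. The interferon-induced chemokine Cxcl11 was 8.28, 8.32 and 9.51 in the odd and 7.58, 7.996 and 7.57 in the even mice, and its difference of 0.99 fell under the limit, to 0.58, without mouse 5. Ifi27l2a, an interferon-inducible gene outside the list, was 11.63, 11.81 and 11.87 in the odd and 10.62, 10.28 and 10.34 in the even mice. The genes for the interferon-gamma induced GTPases (0 of 7 separating, median 0.08) and for antigen presentation by MHC class I (0 of 14, median 0.03) did not divide with them.

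Promoters are shown for 2 interferon-stimulated genes that separated the mice, because members of this list moved together and share a known regulatory element. The 250 bases upstream of the start were taken from RefSeq on GRCm38.p6 and searched on both strands for the letters TTTCNNTTTC, the core of the interferon-stimulated response element, whose matches are in capitals. Ifit3 (chr19:34583279-34583528, plus strand) held 2 matches, beginning 156 and 122 bases before the start, and Rsad2 (chr12:26456453-26456702, minus strand) held 1, beginning 120 bases before it. Such a match was found in 3.46% of 27025 promoters of this length. It was found in 15 of 126 promoters of genes higher in the odd mice (11.9%), in 0 of 40 of genes higher in the even mice, and in 6 of the 10 promoters given for the 16 interferon-stimulated genes (60%). These are matches of letters and not measured binding.
Ifit3: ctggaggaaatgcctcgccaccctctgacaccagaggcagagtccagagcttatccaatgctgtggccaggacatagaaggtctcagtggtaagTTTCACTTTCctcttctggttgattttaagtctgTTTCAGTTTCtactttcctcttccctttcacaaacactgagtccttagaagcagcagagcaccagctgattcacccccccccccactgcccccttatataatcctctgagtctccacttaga
Rsad2: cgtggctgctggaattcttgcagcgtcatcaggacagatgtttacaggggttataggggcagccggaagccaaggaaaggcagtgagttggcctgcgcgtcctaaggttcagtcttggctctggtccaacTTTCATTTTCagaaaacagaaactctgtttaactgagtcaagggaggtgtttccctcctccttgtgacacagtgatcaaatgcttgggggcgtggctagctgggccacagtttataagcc

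Bnip3, a mitophagy receptor of the mitochondrial outer membrane induced by HIF1A, had the largest difference among the 164 genes. Its log2 values were 9.44, 7.92 and 9.05 in mice 1, 3 and 5, and 6.92, 6.72 and 7.004 in mice 2, 4 and 6. The means differed by 1.92 (3.80-fold), and a second probe set of the gene gave 1.84. The even mice lay close together while the odd mice spread over more than 1 log2 unit, with mouse 3 lowest. In pEGFR-Lo, Bnip3 ran from 7.55 to 9.32 with an odd minus even difference of -0.12. The difference between the lines did not pass the limits (log2 difference -0.70, SE 0.46, adjusted p = 0.277 from limma).

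The hypoxia response held 17 genes higher in the odd mice, of 48 measured (35.4%, against 0.823% of all genes). In the even mice 1 was higher (2.08%, against 0.286%), and the median difference was 0.43. The glucose transporters Slc2a1 and Slc2a3, the glycolytic enzymes Pfkl, Tpi1 and Ldha and the glycogen metabolism genes Pgm1 and Ppp1r3c were among the 17. So were the angiogenic factors Vegfa and Adm, the carbonic anhydrase Car9, the HIF prolyl hydroxylase Egln3, the mTORC1 inhibitor Ddit4, and Bnip3, Bnip3l, Ankrd37, Higd1a and Fam162a. Slc2a3 was 6.88, 5.51 and 6.77 in the odd mice and 5.10, 5.11 and 5.16 in the even mice (2.40-fold). Vegfa was 10.14, 9.54 and 10.22 in the odd mice and 9.13, 9.19 and 8.97 in the even mice (1.83-fold). In both genes mouse 3 stood between the even mice and the other odd mice.

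This order differed from that of the interferon list. Mouse 1 had the highest value for 14 of the 17 hypoxia genes and mouse 3 the lowest of the odd values for 16 of them. The list means were 7.98, 7.40 and 7.85 in mice 1, 3 and 5 and 7.24, 7.26 and 7.25 in mice 2, 4 and 6. The single member that was higher in the even mice was Pfkp, a platelet-type phosphofructokinase, with 5.81, 4.93 and 5.46 in the odd and 5.95, 5.95 and 6.17 in the even mice (difference -0.62, and -0.39 without mouse 3). Hif1a, whose product is regulated mainly through protein stability, had an odd minus even difference of -0.27 and did not reach 1.5-fold. The pEGFR-Lo mice varied in this list too, with means from 7.29 to 7.75, but not by odd and even number (median difference -0.02).

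The promoters of Bnip3 and Ankrd37 are shown as those of hypoxia genes that separated the mice. The letters searched on both strands were ACGTG, the core of the hypoxia response element, in capitals where they matched. In Bnip3 (chr7:138909507-138909756, minus strand) 2 matches on opposite strands overlapped, beginning 108 and 107 bases before the start, and in Ankrd37 (chr8:45999851-46000100, minus strand) 2 matches began 241 and 6 bases before it. This short core was found in 18.5% of all promoters, in 33 of 126 promoters of genes higher in the odd mice (26.2%), in 7 of 40 of genes higher in the even mice (17.5%) and in 11 of the 15 promoters given for the 17 hypoxia genes (73.3%). A STAT site (TTCNNNGAA) and a heat shock element pair (GAANNTTC) were searched too. The STAT site was found in 8.13% of all promoters, in 9 of the 126 (7.14%) and in 1 of the 40 (2.5%). The heat shock pair was found in 7.73% of all promoters, in 8 of the 126 (6.35%) and in 3 of the 40 (7.5%).
Bnip3: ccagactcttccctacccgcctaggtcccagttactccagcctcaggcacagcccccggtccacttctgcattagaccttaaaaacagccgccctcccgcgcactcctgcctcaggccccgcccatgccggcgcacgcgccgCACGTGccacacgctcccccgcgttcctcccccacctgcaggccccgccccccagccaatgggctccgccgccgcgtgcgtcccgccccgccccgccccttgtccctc
Ankrd37: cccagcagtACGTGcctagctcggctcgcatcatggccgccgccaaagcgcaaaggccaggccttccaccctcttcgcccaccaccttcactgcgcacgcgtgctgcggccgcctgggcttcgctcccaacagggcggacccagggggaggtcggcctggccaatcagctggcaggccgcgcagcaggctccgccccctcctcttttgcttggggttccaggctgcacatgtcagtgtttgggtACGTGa

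For cholesterol synthesis all 22 measured genes had the higher mean in the odd mice. Of them 15 did not overlap (68.2%, against 6.36% of all genes), and 7 reached 1.5-fold (31.8%, against 0.823%). The median difference was 0.40. The 7 were Hmgcs1, which makes HMG-CoA, Idi1, Fdps and Fdft1 of the isoprenoid and squalene steps, Msmo1 and Nsdhl of the later sterol steps, and Insig1, which retains the SREBP complex in the endoplasmic reticulum. Hmgcs1 was 8.42, 8.20 and 8.46 in the odd mice and 7.40, 7.20 and 7.18 in the even mice (2.14-fold). Insig1 was 9.74, 9.87 and 9.93 in the odd mice and 9.03, 8.99 and 8.43 in the even mice (2.04-fold). Mouse 3 was the lowest odd mouse for 6 of these 7 genes, and the list means were 8.40, 8.16 and 8.33 in the odd mice and 7.79, 7.83 and 7.74 in the even mice. The pEGFR-Lo mice, at 7.996 to 8.27, lay above all even and overlapped the odd mice. In this list 0 genes passed the test as higher in pEGFR-Hi and 1 as higher in pEGFR-Lo, against 3.99% and 5.06% of all genes.

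**Figure D2:**
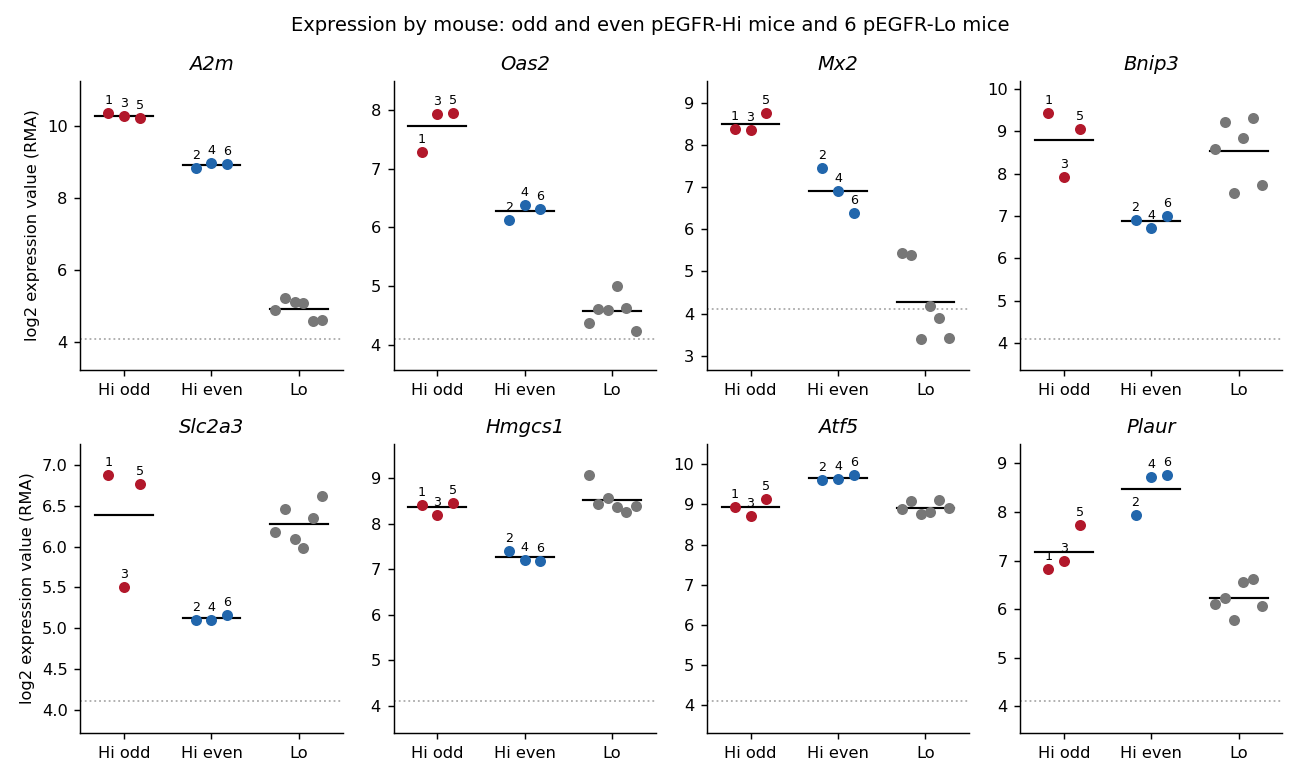
Log2 RMA value (vertical axes, each with its own range) of 8 genes in each odd pEGFR-Hi mouse (red), even pEGFR-Hi mouse (blue, replicate numbers beside the points) and pEGFR-Lo mouse (grey), with black lines for the group means and a dotted line for background at 4.10. A2m, Oas2 and Mx2 of every pEGFR-Hi mouse lay above every pEGFR-Lo mouse, while Bnip3, Slc2a3 and Hmgcs1 of the odd mice lay within or near the pEGFR-Lo range and Atf5 and Plaur were higher in the even mice.

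Together the interferon, hypoxia, cholesterol and acute phase lists held 45 of the 164 genes, and 109 were in none of the 30 lists. Several of the 109 encode glial and neural proteins, named here after their values were seen. Sparcl1, a matricellular protein secreted by astrocytes, was 7.97, 8.77 and 8.19 in the odd mice and 7.11, 7.01 and 7.14 in the even mice. The neuronal G protein subunit Gng3 was 6.78, 6.45 and 7.04 in the odd mice and 5.41, 5.37 and 4.71 in the even mice. Both were far higher in pEGFR-Lo, with means of 11.45 and 11.24. The linker histone H1f2 and the core histone H2bc4 also separated the mice, by 1.23 and 1.13, with mouse 3 highest in each.

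Anxa2, a calcium-dependent membrane-binding protein, was 7.33, 6.19 and 7.57 in the odd mice and 5.65, 5.38 and 6.01 in the even mice, with mouse 3 lowest of the odd mice as in most of the hypoxia genes. Prelid2 was 6.80, 5.57 and 6.62 against 4.68, 4.86 and 4.24, again with mouse 3 lowest of the odd mice, and was higher in pEGFR-Hi (log2 difference 2.20, SE 0.36, adjusted p = 0.000145 from limma). For 17 of the 164 genes the even mean was at or below background, so that only a bound on the fold can be given. These included the SNARE protein gene Vamp8 (4.75, 5.26 and 6.27 in the odd mice, at least 2.51-fold) and Scrg1 (3.98, 5.08 and 5.32, at least 1.62-fold), the latter at a mean of 10.68 in pEGFR-Lo.

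Of the 18 astrocyte genes 3 were higher in the odd mice (16.7%, against 0.823% of all genes) and 0 in the even mice. The 3 were the water channel Aqp4 of astrocyte endfeet, the angiotensin precursor Agt and the secreted chaperone Clu (0.72, and 0.54 without mouse 5). The list median was 0.10. List means were 6.84, 6.97 and 7.08 in the odd mice and 6.81, 6.72 and 6.69 in the even mice. Without a fold limit 5 did not overlap with the odd mice higher (27.8%, against 6.36%), among them Gfap (0.40). With the even mice higher there were 0. Aqp4 was 5.23, 5.87 and 5.77 in the odd mice and 4.48, 4.29 and 3.65 in the even mice. Among 27 progenitor genes 2 were higher in the odd mice (7.41%, against 0.823% of all genes) and 0 in the even mice. The 2 were Id2, an inhibitor of basic helix-loop-helix factors (1.10), and Fabp7, a fatty acid binding protein of radial glia (0.85). Without a fold limit 5 did not overlap with the odd mice higher (18.5%, against 6.36%) and 1 with the even mice higher (3.7%, against 6.32%). List means were 7.18 to 7.29 in the odd and 7.06 to 7.10 in the even mice. The genes Sox2 (9.28 to 9.72), Nes (8.61 to 8.94), Olig2 (8.76 to 9.19) and Egfr (7.58 to 8.06) did not separate the mice. They were well above background in all 6 pEGFR-Hi mice. Egfr is here the mouse gene, while the transduced EGFRvIII was human. Values of Prom1, which the study found higher in pEGFR-Hi cells, are not given here. In the matrix list 1 of 36 genes was higher in the odd mice (2.78%, against 0.823% of all genes), the chondroitin sulfate proteoglycan Ncan (difference 1.06). Without a fold limit 5 did not overlap with the odd mice higher (13.9%, against 6.36%) and 1 with the even mice higher (2.78%, against 6.32%).

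Lists of markers of other cell types were compared as well, and they differed in how many members were above background in pEGFR-Hi. The mean was above background for 10 of 19 mature neuron genes and 3 of 3 red blood cell genes. In all 6 pEGFR-Hi mice the microglial genes Csf1r (3.25 to 3.66), Aif1 and Ptprc, the endothelial Cdh5 and Pecam1, the oligodendrocyte gene Mog and the synaptic gene Snap25 were below background. Others lay above it: the myelin gene Mbp (4.49 to 4.65), the T cell receptor subunit Cd3e (4.33 to 4.89) and the erythroid gene Alas2 (4.18 to 4.83) did so in every pEGFR-Hi mouse, and the endothelial receptor Kdr did so in mice 4 and 6 (4.39 and 4.97). The smooth muscle actin gene Acta2 was well above background, at 7.14, 6.08 and 7.75 in the odd mice and 6.35, 6.37 and 6.65 in the even mice, and the groups overlapped. Of 12 pericyte and smooth muscle genes 9 had a mean above background and 0 separated the mice, and the list mean ran from 4.60 to 5.09 in the odd and from 4.67 to 4.90 in the even mice. Of 28 microglia and macrophage genes 15 had a mean above background. The list means were 4.60 to 4.71 in the odd and 4.60 to 4.67 in the even mice. In this list 1 gene was higher in the even mice (3.57%, against 0.286% of all genes), the lysozyme gene Lyz2. Of 17 endothelial genes 8 were above background (3.92 to 3.96 against 3.75 to 3.98), of 14 oligodendrocyte genes 6 (4.57 to 4.63 against 4.55 to 4.64), and of 22 lymphocyte and neutrophil genes 5 (3.36 to 3.43 against 3.30 to 3.43), and 0 genes of these lists separated the mice. The part of other cells in the odd minus even differences was not tested. In bulk arrays fewer cells of a type and less RNA per cell cannot be told apart.

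**Figure D3:**
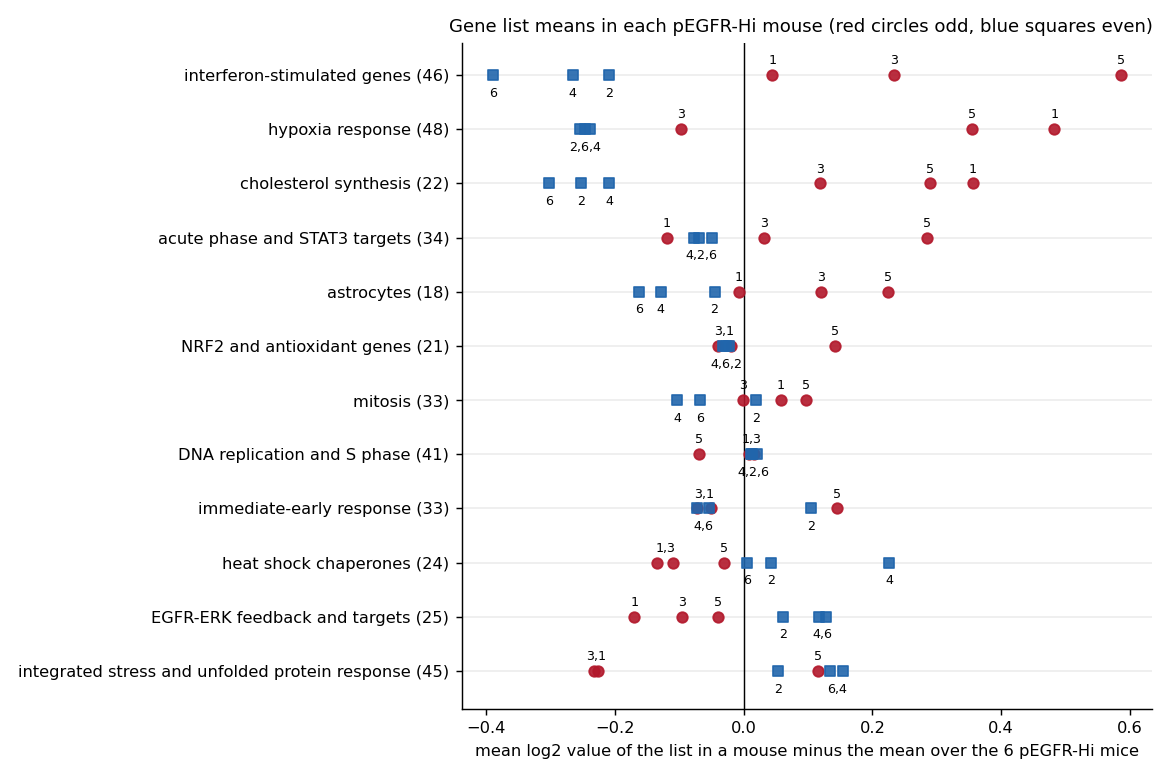
Mean log2 value of 12 gene lists (rows, number of measured genes in brackets) in each pEGFR-Hi mouse minus the mean over the 6 mice (horizontal axis), with odd mice as red circles, even mice as blue squares and replicate numbers beside them. Interferon, hypoxia, cholesterol and astrocyte lists were higher in all 3 odd mice. Mouse 5 was highest for interferon (8.65) and mouse 1 for hypoxia (7.98). The heat shock and EGFR-ERK lists were lower in all 3 odd mice.

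In the opposite direction the differences were smaller. The integrated stress and unfolded protein response follows ATF4 and the endoplasmic reticulum stress sensors. Of its 45 genes 42 had the lower mean in the odd mice, and the median was -0.24. In the even mice 2 were higher within the limits (4.44%, against 0.286% of all genes). They were Atf5, a transcription factor translated under stress, with 8.93, 8.71 and 9.15 in the odd and 9.62, 9.64 and 9.72 in the even mice, and the amino acid transporter Slc7a5, with 11.32, 11.07 and 11.36 against 11.88, 11.82 and 11.88 (difference -0.61, and -0.52 without mouse 3). Without a fold limit 14 of the 45 did not overlap with the even mice higher (31.1%, against 6.32% of all genes). With the odd mice higher 2 did not overlap (4.44%, against 6.36%). Under 1.5-fold among the 14 were the asparagine synthetase Asns (-0.52), Chac1 (-0.49), Sesn2 (-0.47) and Slc3a2 (-0.39), the partner chain of Slc7a5. Mouse 5 was the odd mouse nearest the even mice, with a list mean of 8.77 against 8.43 and 8.42 in mice 1 and 3 and 8.71 to 8.81 in the even mice. Ddit4, which both this list and the hypoxia list hold, went the other way (7.61, 6.75 and 7.92 against 6.35, 6.17 and 6.27). It was the 1 member higher in the odd mice (2.22%, against 0.823% of all genes).

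Of 24 heat shock chaperones, 20 had the lower mean in the odd mice (median -0.14). In the even mice 2 were higher, Dnajb1 and Hsph1 (8.33%, against 0.286% of all genes), and in the odd mice 0. Without a fold limit 6 did not overlap with the even mice higher (25%, against 6.32%) and 0 with the odd mice higher. Dnajb1, a co-chaperone of HSP70, was 7.82, 8.07 and 8.08 in the odd and 8.96, 9.03 and 8.38 in the even mice. Hsph1, a nucleotide exchange factor of HSP70, was 8.08, 8.22 and 8.36 against 8.61, 9.58 and 8.55, with mouse 4 alone far above, and its difference became -0.36 without that mouse. Immediate-early genes had 0 of 33 in either direction and a median of -0.00. Without a fold limit 1 did not overlap with the odd mice higher (3.03%, against 6.36% of all genes) and 3 with the even mice higher (9.09%, against 6.32%).

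Targets and feedback inhibitors of EGFR and ERK signaling had the lower mean in the odd mice for 23 of 25 genes, with a median of -0.23. Only Ccnd1, cyclin D1, separated the mice (4% of the list, against 0.286% of all genes). It was 8.84, 9.01 and 9.35 in the odd mice and 9.50, 9.92 and 9.77 in the even mice. Its difference of -0.66 became -0.55 without mouse 1 and was also under the limit without mouse 4, so 0 genes of this list separated the mice then. The ERK inhibitor Spry4 (-0.44), the ERK phosphatase Dusp6 (-0.29) and Myc (-0.37) did not overlap but differed less. Without a fold limit 6 of the 25 did not overlap with the even mice higher (24%, against 6.32% of all genes). Ccnd1 and Spry4 were both called higher in pEGFR-Lo (means 11.59 and 11.09), and the even mice were the nearer to that level. Of 41 replication genes 0 separated the mice (median -0.02), with 16 higher in mean in the odd mice and 25 lower. Of 33 mitosis genes 0 separated them either, but 28 had the higher mean in the odd mice (median 0.09). In 4 the mice did not overlap, all with the odd mice higher (12.1%, against 6.36% of all genes).

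The genes with the largest even over odd differences belonged to none of the lists. Plaur, the urokinase receptor, was 6.82, 6.98 and 7.73 in the odd mice and 7.93, 8.73 and 8.75 in the even mice (2.46-fold). Nptx1, a secreted neuronal pentraxin, was 7.15, 8.55 and 8.15 against 9.26, 9.35 and 9.14 (2.46-fold). Tlr4, the lipopolysaccharide receptor, was 4.88, 5.06 and 4.79 against 6.05, 5.87 and 6.15, and the transcriptional repressor Bcl6b was 7.80, 7.22 and 7.36 against 8.47, 8.58 and 8.51. Atxn1, the ataxin 1 gene, had the largest difference among the 57 genes (-2.18), but its second probe set gave 0.21, so the probe sets disagree and its direction is uncertain.

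The serotonin receptor gene Htr1b was 5.45, 6.69 and 6.01 in the odd mice and 7.20, 6.94 and 7.34 in the even mice. Map3k5, the stress kinase ASK1, was 4.76, 5.03 and 5.09 against 5.73, 6.15 and 5.80, and the HSP70 family gene Hspa1l was 4.66, 3.96 and 4.04 against 5.22, 5.10 and 5.03. The secreted matricellular protein gene Ccn3 was 6.20, 6.13 and 6.31 against 6.83, 7.19 and 7.34. For 8 of the 57 genes the odd mean was at or below background, among them the copine Cpne8 (at least 1.75-fold) and the olfactory receptor gene Olfr1148 (at least 1.24-fold).

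**Figure D4:**
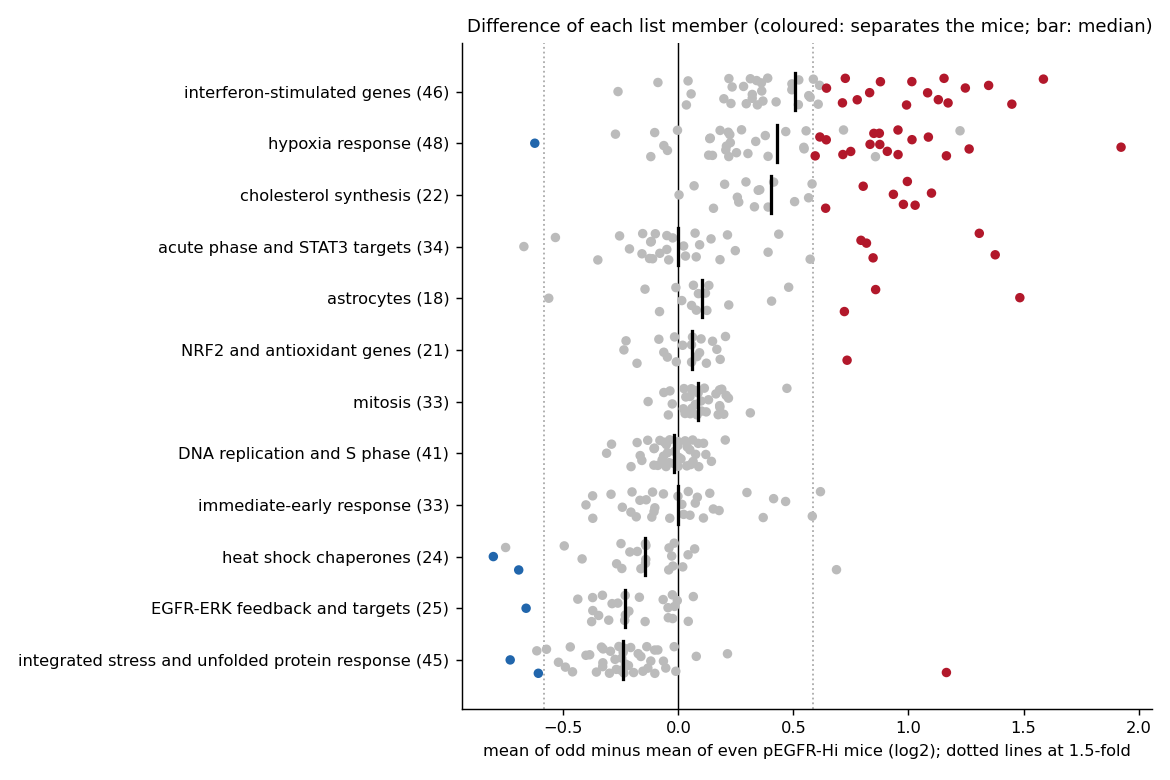
Odd minus even log2 difference (horizontal axis) of every measured member of 12 lists (rows), with members that separate the mice in red (odd higher) or blue (even higher), others in grey, list medians as black bars and dotted lines at 1.5-fold. The medians were 0.51 for interferon-stimulated, 0.43 for hypoxia and 0.40 for cholesterol synthesis genes, against -0.24 for the integrated stress and unfolded protein response and -0.23 for EGFR-ERK targets.

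The remaining lists held few separating genes in number, though in some their share was above that of all genes. In the NRF2 list 1 of 21 genes was higher in the odd mice (4.76%, against 0.823% of all genes), the heme oxygenase Hmox1. It was 9.32, 9.15 and 10.41 in the odd and 8.96, 8.84 and 8.88 in the even mice. The difference became 0.34 without mouse 5. The complement list had 2 of 18 higher in the odd mice (11.1%), Cfb and Clu. The cytokine list had 2 of 34 (5.88%), Ifnb1 and Cxcl11, and the mature neuron list 1 of 19 (5.26%), the glycolytic enzyme Eno2. None of 23 p53 targets, 27 ribosomal protein genes or 30 oxidative phosphorylation genes separated the mice. Under 1.5-fold, 6 ribosomal genes did not overlap with the even mice higher (22.2%, against 6.32% of all genes). Likewise 7 oxidative phosphorylation genes did not overlap with the odd mice higher (23.3%, against 6.36%).

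To ask whether the numbers carried the same difference elsewhere, odd and even mice were compared in pEGFR-Lo with limma. No gene was called at an adjusted p under 0.05 (smallest adjusted p = 0.9998 from limma), and 485 genes (2.43%) had an unadjusted p under 0.05. Of the 164 genes higher in the odd pEGFR-Hi mice, 65 had the same sign in pEGFR-Lo and 99 the opposite sign, with a median difference of -0.04 against 0.81 in pEGFR-Hi. None separated the pEGFR-Lo mice in the same direction, 1 did so in the other, and 2 had an unadjusted p under 0.05. Of the 57 genes higher in the even mice, 36 had the same sign in pEGFR-Lo and 21 the opposite, with a median of -0.05 against -0.70, and 1 separated the mice in each direction. In pEGFR-Lo the median differences of the interferon, hypoxia and cholesterol lists were -0.06, -0.02 and -0.03, and 0 genes of these lists separated the odd from the even mice. For the interferon list 1 low mouse fell on each side, replicate 3 (mean 5.51) and replicate 6 (5.34), against 6.59 to 6.93 in the others. Its genes could therefore hardly separate, and the 0 cannot show that an odd minus even difference was absent there.

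**Figure D5:**
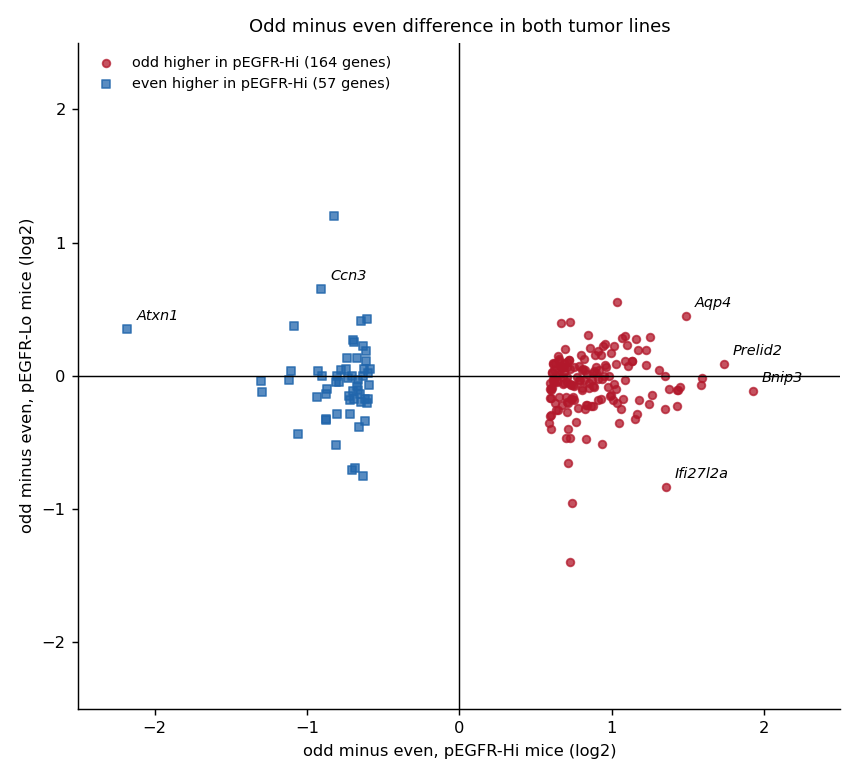
Odd minus even log2 difference in pEGFR-Hi (horizontal axis) and in pEGFR-Lo (vertical axis) for the 164 genes higher in the odd (red circles) and the 57 higher in the even pEGFR-Hi mice (blue squares). The horizontal gap around 0 is set by the selection, while on the vertical axis both sets lie around 0, with medians of -0.04 and -0.05.

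Between the lines limma called 795 genes higher in pEGFR-Hi (3.99%) and another 1009 higher in pEGFR-Lo (5.06%), at an adjusted p under 0.01 and at least 2-fold. Of the 164 genes higher in the odd pEGFR-Hi mice, 30 were called higher in pEGFR-Hi (18.3%) and 51 higher in pEGFR-Lo (31.1%). Of the 57 genes higher in the even mice, 6 (10.5%) and 12 (21.1%) were called in these directions. Seen from the other side, 51 of the 1009 genes (5.05%) and 30 of the 795 genes (3.77%) were among the 164. The interferon genes and A2m were thus at their highest in the odd pEGFR-Hi mice, farther from pEGFR-Lo, while Gng3, Sparcl1, Ncan, Id2 and Fabp7, all called higher in pEGFR-Lo, were nearer the pEGFR-Lo level in the odd than in the even mice. The same 6 pEGFR-Hi arrays enter both contrasts, and the p-values measure the spread between mice of 1 line each.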

How the data were processed

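RNA of sorted tumor cells was measured in 12 mice, 6 per tumor line, with groups and replicate numbers taken from the sample titles. The authors deposited log2 values made with RMA in Affymetrix Expression Console; the probe set build and software version are not given in the sources used here. Of 35556 probe sets, 21789 had 1 gene symbol, 1621 several and 12146 none. The brightest probe set with 1 symbol was used for each of 19938 genes, 999 of which had more than 1; 21698 probe sets matched RefSeq by Entrez ID. Members of the lists without a value were left out.

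The members, the odd against even division and the 30 gene lists were chosen with earlier results of these data known. Within pEGFR-Hi the division was described without a test. Genes named are A2m and Oas2, the 12 largest differences in each direction among separating genes above background, up to 4 members of each list in its main direction and 2 in the other, and the first 3 measured markers of each cell type; others were chosen after their values were seen.

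Odd and even pEGFR-Lo mice, and the lines, were compared by the moderated test of limma (version 3.58.1, run in R 4.3.3), adjusted over all genes by Benjamini-Hochberg; the study's methods used SAM, which was not run. The limma code was tested on simulated data. Tables and plots were made in Python 3.11.15 with pandas 2.3.3, numpy 2.4.6 and matplotlib 3.10.9, and R read its input through the package data.table (1.17.8). Alternatives were another quantile normalization, array median centring, the mean of probe sets, a filter on dim genes, other fold limits, other variance models, the replicate block and leaving out each array. A fold against a mean below background is given as a bound, and the number of arrays limits the precision.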

Additional observations from a re-analysis of the deposited data

Results flagged for a closer look

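Of 200 sets of 6 values examined for a single value far from the rest, 11 had one, and chance gives about 1 in 20. In pEGFR-Hi these were Hsph1 in replicate 4, high at 9.58 against 8.08 to 8.61 in the other mice, Hmox1 in replicate 5, high at 10.41 against 8.84 to 9.32, and Aif1 in replicate 5, at 3.67 against 3.34 to 3.46 and below background. Replicate 2 was low for Csf1r (3.25 against 3.55 to 3.66) and for Pecam1 (3.19 against 3.74 to 3.98), both below background. In list means, replicate 5 was high for NRF2 and antioxidant genes (8.90 against 8.72 to 8.74) and low for DNA replication and S phase genes (8.70 against 8.78 to 8.79), and replicate 2 was low for endothelial genes (3.75 against 3.92 to 3.98).

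In pEGFR-Lo, replicate 3 was low for Vamp8 (3.25 against 3.67 to 3.89) and high for the mean of the astrocyte genes (7.97 against 7.60 to 7.71), and replicate 1 was low for Ptprc (2.62 against 2.86 to 2.99).

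Ddit4 was the 1 named gene, of 71, whose odd and even mice did not overlap in either line but in opposite directions: the odd minus even difference was -0.29 within pEGFR-Lo and 1.16 within pEGFR-Hi. Whether these odd minus even differences differ from each other was not tested.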

How the results depend on the processing

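The 164 genes higher in the odd and 57 higher in the even pEGFR-Hi mice became 42 and 7 at a 2-fold limit and 1269 and 1260 with no fold limit. Leaving out 1 mouse gave 175 to 255 and 87 to 118 genes, more because fewer values must not overlap; of the original genes 130 to 153 and 43 to 51 were kept, with the fewest odd-higher genes kept without mouse 5. Without mouse 1 the odd-higher count was 255, with 14 hypoxia genes; without mouse 5 the interferon list kept 13 genes and a median of 0.31. Between the lines, dropping the fold limit and taking an adjusted p under 0.05 gave 3871 genes for pEGFR-Hi and 3314 for pEGFR-Lo. The mean of its probe sets moved Atxn1 to -0.98. The count of 0 genes within pEGFR-Lo held in all 13 alternatives, with 257 to 1321 genes at an unadjusted p under 0.05, the most without replicate 5. List medians moved by more than the spread in 22 of 270 alternative values.

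Odd and even are defined by replicate numbers that both lines share. Deviations of same-numbered mice correlated at -0.181 to 0.120 over 6 pairs, a range that overlapped that of differently numbered mice. Only 1 pEGFR-Hi mouse correlated best with its own number. Weak correlations over 6 pairs cannot show whether same-numbered mice were handled together, and this was not tested. With the replicate block, limma called 801 genes higher in pEGFR-Hi and 1008 lower, in place of 795 and 1009.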
